A study of Mus musculus with 9 samples.

Results

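Solute carriers are the largest family of membrane transport proteins, and the 184 solute carrier genes described here were those measurable in Abelson virus transformed mouse pro-B cells. A probe was a member when its gene name in the array files began with Slc and a number and when the scanner flagged its signal as well above background in 3 of 3 arrays for 1 or more groups. Slc2a1, Slc2a3, Slc16a1, Slc16a3 and Slc6a8 were left out. This gave 288 of 567 solute carrier probes and 184 of 343 genes, within 41174 probes and 11905 genes tested in all. The members were thus chosen by detection on the same arrays that are compared below, so every count and median over them is a description. By name 4 members are not carriers: Slc4a1ap and Slc7a6os, which are named after a neighbour or partner, and the scaffold proteins Slc9a3r1 and Slc9a3r2.

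The arrays compared 3 groups of 3 samples, all from C57Bl/6 pro-B lines transformed with A-MuLV, carrying Ebf1fl/fl and the tamoxifen-inducible RERTCre, and all given 2 µM 4-hydroxy-tamoxifen (4-OHT). Ebf1 encodes early B cell factor 1, a transcription factor required for B lineage identity. EBF1wt cells had received the retroviral vector pmys-EBF1wt-IRES-GFP and EBF1ΔC cells pmys-EBF1ΔC-IRES-GFP, which encodes EBF1 without its C-terminal domain. In both, 4-OHT followed the transduction by 24 hours, GFP-positive cells were sorted after 5 days of it, and RNA was taken over 2 weeks after the sort. Mock cells were mock-transduced and harvested 4 days after 4-OHT, before cell death. Mock therefore differed from both EBF1 groups in vector, sorting and time in culture as well as in EBF1, and these cannot be told apart. It was also scanned on another day, on slides that held no EBF1 array. The labels do not say that replicates were separate cultures, so p-values speak only of the spread among these arrays, which may be technical. For EBF1wt replicate 3, tamoxifen is missing from the source name and given in the description.

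Values below are the scaled log2 signal, the log2 of each array's processed signal minus that array's 75th percentile. A difference of 1 is 2-fold. A gene was called, and is said to have risen or fallen, when its adjusted p in limma was under 0.05 and its difference was at least 2-fold. A solute carrier probe's level cannot be set against another probe's, so only the same gene is compared between groups. Of the 11 pro-B markers, Ebf1 among them, 10 were above background in each group and Kit was not. Their summed log2 signal was lower in Mock, at 7.67 to 7.68, against 9.59 to 9.70 in EBF1wt and 9.54 to 9.64 in EBF1ΔC. The 2 Ebf1 probes went opposite ways. One read 1.45 in Mock, 3.06 in EBF1wt and 3.80 in EBF1ΔC (means, n = 3), and the other -2.59 in Mock, on all 3 arrays above background, with no EBF1wt or EBF1ΔC array above it. Where they lie relative to the deleted part or the vector was not analysed here. Among markers of other cells, the erythroid list had 3 of 6 genes above background in Mock and 1 of 6 in each EBF1 group, with Klf1 and Alas2 below background in every group. Its summed log2 signal was 8.43 to 8.67 in Mock, 1.72 to 2.45 in EBF1wt and 1.27 to 2.42 in EBF1ΔC. The myeloid list had 4 of 9 above background in Mock and EBF1wt and 3 of 9 in EBF1ΔC, with Itgam, Csf1r, Mpo, Elane and Adgre1 below background in every group. Its summed signal was 3.14 to 3.26 in Mock, -0.37 to 1.57 in EBF1wt and 3.04 to 3.98 in EBF1ΔC. For T and NK cells 2, 1 and 1 of 7 markers were above background (Cd3g, Cd4, Cd8a, Ncr1 and Klrb1c in none), with summed signals of -1.81 to -1.36, -2.89 to -2.67 and -2.98 to -2.64. For stromal and endothelial cells the counts were also 2, 1 and 1 of 7 (Col1a1, Col3a1, Cdh5, Pdgfrb and Cxcl12 in none), with sums of -0.76 to -0.49, -1.88 to -1.23 and -1.05 to -0.74. The part of these markers in the results was not tested. In such bulk samples, fewer cells of a type and less RNA per cell cannot be told apart. Of the replicates, EBF1wt replicate 2 differed from the others of its group by a median of 0.169 and 0.175 log2 units, against 0.112 between replicates 1 and 3. EBF1ΔC replicate 3 differed from its group by 0.165 and 0.153, against 0.114 between replicates 1 and 2.

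Solute carriers move nutrients and ions across the plasma membrane and across the membranes of mitochondria, lysosomes, the endoplasmic reticulum and the Golgi. Some work alone, such as the zinc carriers, and others need a partner chain, such as Slc7a5, which reaches the surface with Slc3a2, the heavy chain known as CD98. Dividing lymphocytes are known to draw on amino acid import through these carriers, which also feeds the nutrient sensor mTORC1 at the lysosome. The results are ordered by the cargo that each Slc family is known to carry. Classes follow the family number alone, so the cargo of a single member can differ from its class. The 4 members that are not carriers are counted in the class of their number.

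Promoters of 5 carriers called against Mock in both EBF1 groups are shown, 3 lower and 2 higher, so that the regulatory stretch of members at both ends of the range can be read. They are the 250 bases before a transcript start in the RefSeq table for GRCm38.p6, 5′ to 3′ on the gene's strand, in lower case. Slc37a2 (chr9:37255739-37255988, minus strand), Slc2a6 (chr2:27027999-27028248, minus) and Slc7a7 (chr14:54417945-54418194, minus, the start of one of its transcripts) were the lower ones. Slc30a4 (chr2:122702664-122702913, minus) and Slc6a9 (chr4:117835008-117835257, plus) were the higher ones. Capitals mark TGATGNAA, the C/EBP-ATF response element of many amino acid response genes, searched on both strands together with the EBF motif TCCCNNGGGA.
Slc37a2: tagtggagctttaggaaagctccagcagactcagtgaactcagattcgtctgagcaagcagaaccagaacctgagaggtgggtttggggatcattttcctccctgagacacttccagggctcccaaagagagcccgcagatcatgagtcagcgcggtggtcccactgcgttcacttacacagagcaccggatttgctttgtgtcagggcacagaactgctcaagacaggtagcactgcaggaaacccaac
Slc2a6: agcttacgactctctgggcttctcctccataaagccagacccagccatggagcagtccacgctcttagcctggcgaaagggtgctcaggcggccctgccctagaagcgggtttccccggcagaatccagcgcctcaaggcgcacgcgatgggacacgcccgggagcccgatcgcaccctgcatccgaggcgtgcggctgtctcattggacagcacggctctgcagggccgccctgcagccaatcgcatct
Slc7a7: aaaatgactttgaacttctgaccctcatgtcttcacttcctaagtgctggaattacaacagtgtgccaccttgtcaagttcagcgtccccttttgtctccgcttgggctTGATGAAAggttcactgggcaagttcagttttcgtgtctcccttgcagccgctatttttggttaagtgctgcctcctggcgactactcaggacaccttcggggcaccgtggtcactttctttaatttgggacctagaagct
Slc30a4: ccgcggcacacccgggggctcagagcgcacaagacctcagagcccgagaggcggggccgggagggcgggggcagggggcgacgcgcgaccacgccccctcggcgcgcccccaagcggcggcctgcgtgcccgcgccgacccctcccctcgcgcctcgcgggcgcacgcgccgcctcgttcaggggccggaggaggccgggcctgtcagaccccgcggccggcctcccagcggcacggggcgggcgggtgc
Slc6a9: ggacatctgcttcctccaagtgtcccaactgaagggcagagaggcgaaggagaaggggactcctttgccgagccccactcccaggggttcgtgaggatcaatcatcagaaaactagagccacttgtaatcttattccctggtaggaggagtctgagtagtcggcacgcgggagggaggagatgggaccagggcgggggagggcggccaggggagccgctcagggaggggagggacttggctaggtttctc

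The TGATGNAA match stands 141 bases before the start of the Slc7a7 transcript shown, a second one spans that start, and none of the other stretches printed holds either motif. Of the 184 genes, 138 matched a promoter in the table, taken as 300 bases from 250 before to 50 after the start. TGATGNAA was found in 5 of them (3.62%), Slc1a4, Slc23a3, Slc50a1, Slc7a7 and Slc9a9, against 2.87% of the 9378 tested genes with a promoter. TCCCNNGGGA was found in 2 (1.45%), Slc30a5 and Slc9a3r2, against 1.19%. These shares were near those of all genes. Base composition was also close to that of all genes, with a median of 60.7% G and C and 18 CpG in carrier promoters against 60.3% and 20.

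EBF1wt cells differed from Mock in 41 of the 184 carriers, with 16 higher and 25 lower. That was 22.3% of the carriers against 19.1% of all genes tested, 8.70% against 6.65% higher and 13.6% against 12.4% lower. EBF1ΔC cells differed from Mock in 37, with 12 higher and 25 lower, 20.1% against 17.7% of all genes (6.52% against 6.3% higher, 13.6% against 11.4% lower). These shares were near the background. The 2 comparisons share the Mock arrays, so their values are set side by side. Between the EBF1 forms 6 carriers were called, 1 higher and 5 lower in EBF1ΔC, 3.26% against 2.76% of all genes, where 1.43% were higher and 1.34% lower. The median difference over the carriers was 0.09 for EBF1wt and 0.05 for EBF1ΔC against Mock, beside 0.13 and 0.11 over all genes. The other 132 carriers were called in no comparison.

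The direction split depends on the scaling. With each array scaled to its median in place of its 75th percentile, the median difference of all genes from Mock moved up by 0.70 in EBF1wt and by 0.55 in EBF1ΔC. The carriers then split 64 higher to 10 lower in EBF1wt and 41 to 11 in EBF1ΔC. All genes then split 4579 higher to 752 lower in EBF1wt (44.8% called) and 3064 to 811 in EBF1ΔC (32.5%). The authors' own normalized values gave 7 higher and 9 lower in EBF1wt and 6 and 8 in EBF1ΔC. Of the calls, 12 of 41 in EBF1wt and 11 of 37 in EBF1ΔC held under each alternative fit, and each of the 6 between the forms was lost under 1 or more. Calls lost under another normalization (the authors' values, normexp background correction with quantile normalization, quantile alone, or median scaling) are named with their carrier. Median scaling also called higher some carriers that are given below as not called. In EBF1wt these were Slc1a4, Slc1a5, Slc7a6, Slc38a1, Slc38a2, Slc43a1, Slc11a2, Slc39a10, Slc19a1, Slc29a1 and Slc25a5. In EBF1ΔC they were Slc1a4, Slc1a5, Slc7a1, Slc11a2, Slc29a1, Slc25a1, Slc25a5 and Slc27a1. Relative to the median of all genes, which a constant for each array does not change, 14 carriers stood at least 1 log2 unit above it and 28 at least 1 below it in EBF1wt, with 11 and 30 in EBF1ΔC. The same was not counted over all genes, so these counts have no background beside them. Of the 184 genes, 167 were above background on all 9 arrays. Among them 13 were higher and 19 lower in EBF1wt (19.2% called, against 13.7% of the 10667 genes of that kind) and 10 and 19 in EBF1ΔC (17.4% against 13.1%). The other 17 had been selected through the groups where they were detected, so those detected in 1 kind of group had to differ.

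**Figure D1:**
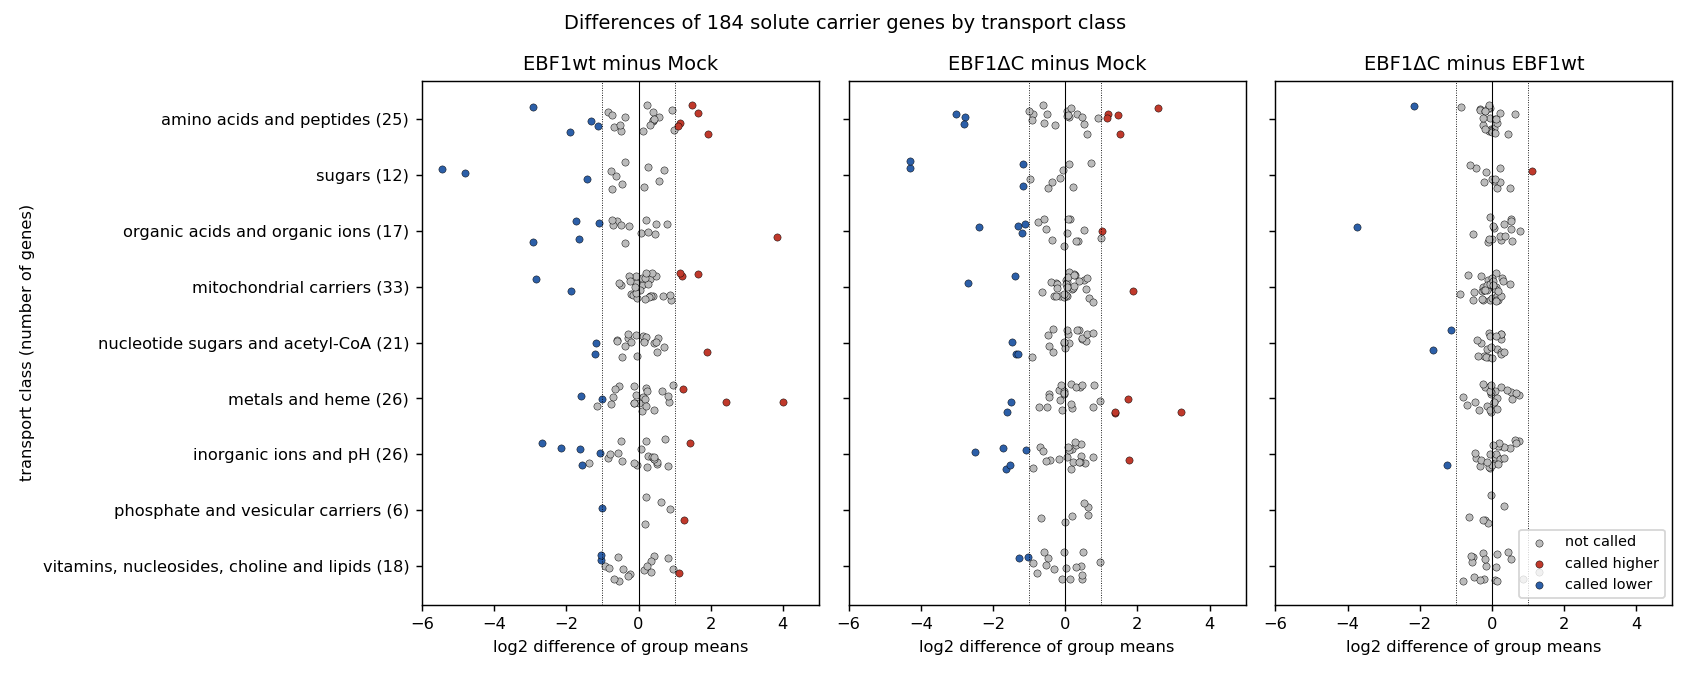
The log2 difference of each of 184 carriers, 1 point a gene, in 9 transport classes (rows) and the 3 comparisons (panels), with dotted lines at 2-fold. Coloured points passed the test and the fold. The longest arms are the sugar carriers at -5.43 and -4.80 in EBF1wt minus Mock, and few points are coloured between the EBF1 forms.

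Amino acid and peptide carriers changed in both directions. Of 25 measured, 5 rose and 4 fell in EBF1wt against Mock, and 5 rose and 3 fell in EBF1ΔC, which is 36% and 32% called. Of all genes tested, 19.1% and 17.7% were called, the background for this and each class below. The importers of large neutral and cationic amino acids, glycine and small neutral amino acids were among those that rose. Carriers of lysosomal and basolateral export type, Slc15a3 and Slc7a7, were among those that fell.

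Slc7a5 had a scaled log2 signal of 1.67, 1.19 and 1.09 in the 3 Mock arrays, 2.72, 2.99 and 2.72 in EBF1wt and 2.85, 2.83 and 2.62 in EBF1ΔC. This gene encodes LAT1, the importer of leucine and other large neutral amino acids. All EBF1 arrays lay above all Mock arrays, and the EBF1 groups overlapped. Slc7a5 differed from Mock by 1.49 log2 units (SE 0.16, adjusted p = 7.8e-05 in limma) in EBF1wt and 1.45 (SE 0.16, adjusted p = 9.71e-05) in EBF1ΔC. Slc3a2 gave scaled log2 signals of 4.59, 4.24 and 4.46 in Mock, 5.57, 5.63 and 5.57 in EBF1wt and 5.76, 5.56 and 5.46 in EBF1ΔC. Its product is the heavy chain that brings LAT1 to the surface, and again no EBF1 array overlapped Mock. Slc3a2 differed from Mock by 1.16 log2 units (SE 0.11, adjusted p = 4.14e-05 in limma) in EBF1wt and 1.16 (SE 0.11, adjusted p = 4.38e-05) in EBF1ΔC. Its second probe gave 1.30 and 1.39 for the 2 comparisons. Slc3a2 fell short of 2-fold in the authors' values (0.93 and 0.94), under quantile (0.90 and 0.93) and under normexp and quantile (0.90 and 0.93).

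Slc6a9 had a scaled log2 signal of 2.58, 2.40 and 2.58 in the 3 Mock arrays, 3.99, 4.26 and 4.24 in EBF1wt and 4.08, 4.08 and 3.97 in EBF1ΔC. It encodes the glycine carrier GlyT1, and the groups of EBF1 cells did not overlap Mock. Slc6a9 differed from Mock by 1.64 log2 units (SE 0.10, adjusted p = 3.18e-06 in limma) in EBF1wt and 1.52 (SE 0.10, adjusted p = 5.32e-06) in EBF1ΔC. Slc7a1 gave scaled log2 signals of 2.28, 2.16 and 2.23 in Mock, 3.30, 3.49 and 3.18 in EBF1wt and 3.23, 3.16 and 3.03 in EBF1ΔC. It encodes CAT1, a carrier of arginine and lysine, which rose past 2-fold in EBF1wt and fell short of it in EBF1ΔC. Slc7a1 differed from Mock by 1.1 log2 units (SE 0.10, adjusted p = 3.05e-05 in limma) in EBF1wt and 0.92 (SE 0.10, adjusted p = 8.62e-05) in EBF1ΔC. That EBF1wt call was lost with the mean of the gene's probes (0.46) and under 3 other normalizations (0.76 to 0.92). Slc7a3 had a scaled log2 signal of -5.29, -4.31 and -4.76 in the 3 Mock arrays, -3.36, -2.16 and -3.05 in EBF1wt and -1.92, -2.15 and -2.62 in EBF1ΔC. It encodes the related carrier CAT3, and all EBF1 arrays were above Mock. Slc7a3 differed from Mock by 1.93 log2 units (SE 0.35, adjusted p = 0.0014 in limma) in EBF1wt and 2.56 (SE 0.35, adjusted p = 0.000331) in EBF1ΔC. In the authors' values Slc7a3 was called in neither (0.71 and 0.99), nor in EBF1wt with normexp and quantile (0.82). In the Mock, EBF1wt and EBF1ΔC arrays, Slc38a2 read 4.16, 4.08 and 4.17, then 5.03, 5.21 and 5.09, then 5.46, 5.25 and 5.29 in scaled log2 signal. It encodes SNAT2, an importer of small neutral amino acids, which passed 2-fold in EBF1ΔC. Slc38a2 differed from Mock by 0.97 log2 units (SE 0.08, adjusted p = 2.58e-05 in limma) in EBF1wt and 1.20 (SE 0.08, adjusted p = 9.75e-06) in EBF1ΔC. The EBF1ΔC call of Slc38a2 was lost with the mean of its probes (0.56) and under 3 other normalizations (0.84 to 0.98). Without EBF1wt replicate 1, Slc38a2 passed 2-fold in EBF1wt too, at 1.01, as it did with median scaling (1.68).

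Several other importers passed the adjusted p in EBF1wt without reaching 2-fold. Slc1a5, the glutamine carrier ASCT2, differed from Mock by 0.56 in EBF1wt and 0.52 in EBF1ΔC. Slc1a4, the related ASCT1, differed by 0.93 and 0.60. Slc38a1, which carries glutamine among others, differed by 0.41 and 0.31. For Slc43a1, a carrier of large neutral amino acids, the values were 0.43 and 0.09, and for Slc7a6, an exchanger of cationic and neutral amino acids, 0.31 and 0.07. The last 2 were near Mock in EBF1ΔC.

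Slc7a7 had a scaled log2 signal of 0.16, 0.28 and 0.16 in the 3 Mock arrays, -2.58, -2.77 and -2.80 in EBF1wt and -2.71, -2.85 and -2.29 in EBF1ΔC. It encodes y+LAT1, the exchanger that exports cationic amino acids. The fall was far outside the spread of every group, and the EBF1 groups overlapped. Slc7a7 differed from Mock by -2.92 log2 units (SE 0.14, adjusted p = 1.19e-06 in limma) in EBF1wt and -2.82 (SE 0.14, adjusted p = 1.63e-06) in EBF1ΔC. Slc15a3 gave scaled log2 signals of 2.65, 2.44 and 2.62 in Mock, 0.88, 0.37 and 0.74 in EBF1wt and 0.11, 0.01 and -0.70 in EBF1ΔC. It encodes a carrier of histidine and peptides in endolysosomes, and no array of the 3 groups overlapped. Slc15a3 differed from Mock by -1.90 log2 units (SE 0.22, adjusted p = 0.000118 in limma) in EBF1wt and -2.77 (SE 0.22, adjusted p = 1.75e-05) in EBF1ΔC. The EBF1 forms differed by -0.86 with an adjusted p of 0.0439 in limma, short of 2-fold. Without EBF1wt replicate 2 that difference was -1.01 and was called.

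Related lysosomal members differed less. Slc15a4, the other endolysosomal peptide carrier, differed from Mock by -0.68 and -0.60. Slc38a9, the arginine-sensing carrier of the lysosome, differed by -0.47 and -0.51. Slc43a2 had a scaled log2 signal of -1.44, -1.14 and -1.02 in the 3 Mock arrays, -2.30, -3.07 and -2.19 in EBF1wt and -2.26, -2.29 and -1.70 in EBF1ΔC. It encodes LAT4, an exit route for large neutral amino acids, and fell in EBF1wt. Slc43a2 differed from Mock by -1.32 log2 units (SE 0.25, adjusted p = 0.0019 in limma) in EBF1wt and -0.88 (SE 0.25, adjusted p = 0.0146) in EBF1ΔC. The EBF1wt call was lost under 3 other normalizations (-0.65 to -0.61). In EBF1ΔC it was called without Mock replicate 1 (-1.0) or without EBF1ΔC replicate 3 (-1.07). Slc6a17, a vesicular carrier of neutral amino acids detected on all Mock arrays and on 2 of 3 in each EBF1 group, fell by 1.13 in EBF1wt and differed by -1.0 in EBF1ΔC. It was not called under 4 other normalizations (-0.42 to -0.03 in EBF1wt). The uncalled amino acid carriers lay between -0.84 and 0.97 in EBF1wt and between -1.0 and 0.92 in EBF1ΔC.

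**Figure D2:**
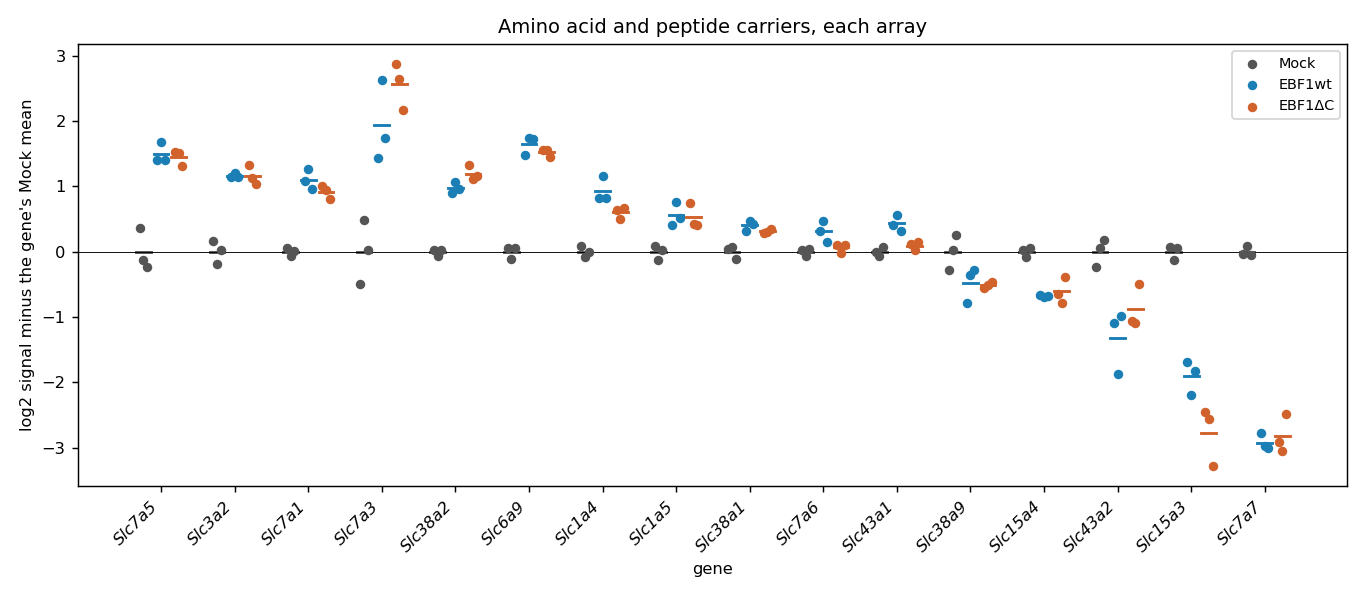
Scaled log2 signal of 16 amino acid and peptide carriers minus the mean of Mock for that gene, 1 point an array and a bar at each group mean. The EBF1 arrays of Slc7a5, Slc3a2, Slc7a3, Slc38a2 and Slc6a9 lie above Mock, and those of Slc15a3 and Slc7a7 lie below it, at means of -1.90 and -2.92 in EBF1wt.

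Sugar carriers held the deepest falls. Of 12 members, 3 fell in EBF1wt and 4 in EBF1ΔC against Mock. Slc37a2 gave scaled log2 signals of 3.26, 3.33 and 3.13 in Mock, -1.88, -2.65 and -2.03 in EBF1wt and -0.94, -0.93 and -1.33 in EBF1ΔC. It encodes an exchanger of glucose-6-phosphate and phosphate in the endoplasmic reticulum. Mock stood far above both EBF1 groups, and EBF1wt lay lowest with no overlap. Slc37a2 differed from Mock by -5.43 log2 units (SE 0.20, adjusted p = 2.85e-07 in limma) in EBF1wt and -4.31 (SE 0.20, adjusted p = 1.03e-06) in EBF1ΔC. The fold was 43.1 in EBF1wt and 19.8 in EBF1ΔC, and the second probe gave -5.59 and -4.50.

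Slc2a6 had a scaled log2 signal of 2.92, 2.83 and 3.07 in the 3 Mock arrays, -1.60, -2.36 and -1.62 in EBF1wt and -1.34, -1.22 and -1.49 in EBF1ΔC. It encodes GLUT6, a glucose carrier family member found in lysosomes. Mock was again the high group, and EBF1wt lay below EBF1ΔC without overlap between their arrays. Slc2a6 differed from Mock by -4.80 log2 units (SE 0.20, adjusted p = 4.68e-07 in limma) in EBF1wt and -4.30 (SE 0.20, adjusted p = 9.89e-07) in EBF1ΔC. In the Mock, EBF1wt and EBF1ΔC arrays, Slc37a3 read 0.78, 0.84 and 0.90, then -0.65, -0.46 and -0.61, then -0.46, -0.29 and -0.27 in scaled log2 signal. This relative of Slc37a2 fell less. Slc37a3 differed from Mock by -1.41 log2 units (SE 0.09, adjusted p = 4.17e-06 in limma) in EBF1wt and -1.18 (SE 0.09, adjusted p = 1.2e-05) in EBF1ΔC. With median scaling Slc37a3 was called in neither (-0.71 and -0.64), nor with the authors' values in EBF1ΔC (-1.0). Slc37a1, the third family member called, fell by 1.18 in EBF1ΔC, where 2 of 3 arrays were above background, and differed by -0.73 in EBF1wt. The Slc37a1 call was lost under 4 other normalizations (-0.66 to -0.08). The probes of Slc37a2 and Slc2a6 lie at chr9:37038331-37038390 and chr2:26877148-26877207 of NCBI37 (mm9) in the array files.

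Of 33 mitochondrial carriers, 3 rose and 2 fell in EBF1wt and 1 rose and 2 fell in EBF1ΔC. That was 15.2% and 9.09% called, against 19.1% and 17.7% of all genes tested. Slc25a35 had a scaled log2 signal of -1.46, -1.54 and -1.27 in the 3 Mock arrays, -2.40, -4.46 and -3.06 in EBF1wt and -3.21, -2.99 and -2.24 in EBF1ΔC. Its EBF1wt arrays were spread widely. Slc25a35 differed from Mock by -1.88 log2 units (SE 0.47, adjusted p = 0.00719 in limma) in EBF1wt and -1.39 (SE 0.47, adjusted p = 0.0292) in EBF1ΔC. In EBF1wt it was not called with the authors' values (-0.69) or with normexp and quantile (-0.76). The EBF1ΔC call was lost without any 1 of Mock replicates 1, 2 or 3 (-1.41, -1.44 and -1.31) or EBF1ΔC replicates 1 or 2 (-1.19 and -1.30), with no filter on dim probes, and under 3 other normalizations (-0.84 to -0.55).

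Slc25a20 gave scaled log2 signals of -0.81, -0.88 and -0.98 in Mock, 1.06, 0.20 and 0.98 in EBF1wt and 0.99, 1.1 and 0.90 in EBF1ΔC. It encodes the carnitine-acylcarnitine carrier, which brings fatty acids in for oxidation, and rose in both EBF1 groups. Slc25a20 differed from Mock by 1.64 log2 units (SE 0.20, adjusted p = 0.000187 in limma) in EBF1wt and 1.89 (SE 0.20, adjusted p = 9.36e-05) in EBF1ΔC. Slc25a1 had a scaled log2 signal of 3.86, 3.48 and 3.62 in the 3 Mock arrays, 4.91, 4.67 and 4.97 in EBF1wt and 4.50, 4.33 and 4.11 in EBF1ΔC. It encodes the citrate carrier, and passed 2-fold in EBF1wt. Slc25a1 differed from Mock by 1.20 log2 units (SE 0.14, adjusted p = 0.000124 in limma) in EBF1wt and 0.66 (SE 0.14, adjusted p = 0.00315) in EBF1ΔC. With quantile normalization it fell just short (1.0). Slc25a26 gave scaled log2 signals of 0.23, 0.43 and 0.44 in Mock, 1.62, 1.29 and 1.61 in EBF1wt and 0.70, 0.72 and 0.44 in EBF1ΔC. It encodes the carrier of S-adenosylmethionine, and EBF1ΔC stayed near Mock. Slc25a26 differed from Mock by 1.14 log2 units (SE 0.12, adjusted p = 8.62e-05 in limma) in EBF1wt and 0.25 (SE 0.12, adjusted p = 0.102) in EBF1ΔC. Its EBF1wt call was lost with the authors' values (0.99) and with normexp and quantile (0.94). The EBF1 forms differed by -0.89 (adjusted p = 0.00426 in limma), short of 2-fold, and this was called with median scaling (-1.05). Slc25a5, an ADP and ATP exchanger, differed from Mock by 0.88 and 0.61 without a call. The other uncalled mitochondrial carriers kept between -0.53 and 0.90 in EBF1wt and between -0.64 and 0.76 in EBF1ΔC.

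Metal carriers changed in both directions. Of 26, 3 rose and 2 fell in EBF1wt, and 4 rose and 2 fell in EBF1ΔC. Slc30a4 had a scaled log2 signal of -3.27, -3.34 and -3.42 in the 3 Mock arrays, -0.75, -1.30 and -0.69 in EBF1wt and -1.84, -2.10 and -0.86 in EBF1ΔC. It encodes the zinc exporter ZnT4 of intracellular vesicles, and no EBF1 array reached down to Mock. Slc30a4 differed from Mock by 2.43 log2 units (SE 0.30, adjusted p = 0.000177 in limma) in EBF1wt and 1.74 (SE 0.30, adjusted p = 0.00112) in EBF1ΔC. In the authors' values Slc30a4 was short of 2-fold in EBF1ΔC (0.99). In the Mock, EBF1wt and EBF1ΔC arrays, Slc39a3 read -1.94, -2.24 and -2.11, then -0.83, -0.83 and -0.89, then -0.72, -0.86 and -0.58 in scaled log2 signal. It encodes the zinc importer ZIP3, with narrow groups. Slc39a3 differed from Mock by 1.25 log2 units (SE 0.10, adjusted p = 1.97e-05 in limma) in EBF1wt and 1.38 (SE 0.10, adjusted p = 1.29e-05) in EBF1ΔC. Its EBF1wt call was lost in the authors' values (0.98) and with normexp and quantile (0.99). Slc39a11 had a scaled log2 signal of 0.61, 0.67 and 0.41 in the 3 Mock arrays, 1.90, 1.06 and 1.61 in EBF1wt and 1.95, 1.88 and 1.99 in EBF1ΔC. It encodes ZIP11 and passed 2-fold in EBF1ΔC. Slc39a11 differed from Mock by 0.96 log2 units (SE 0.19, adjusted p = 0.0021 in limma) in EBF1wt and 1.38 (SE 0.19, adjusted p = 0.000323) in EBF1ΔC.

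Slc11a1 gave scaled log2 signals of -7.82, -7.14 and -6.52 in Mock, -2.43, -4.20 and -2.82 in EBF1wt and -3.37, -3.80 and -4.69 in EBF1ΔC. It encodes NRAMP1, the metal carrier of phagosomes known from macrophages, and was not well above background on any Mock array. It was at least 4.83-fold higher in EBF1wt and at least 2.77-fold higher in EBF1ΔC, a bound set by the lowest signal well above background on each Mock array. The fit gave adjusted p values of 0.000256 and 0.0009 in limma. Neither call held with the authors' values or with normexp and quantile. Slc41a3 had a scaled log2 signal of -2.78, -3.0 and -2.86 in the 3 Mock arrays, -4.72, -4.34 and -4.38 in EBF1wt and -4.54, -4.55 and -4.39 in EBF1ΔC. It encodes a magnesium carrier and fell in both at this scaling. Slc41a3 differed from Mock by -1.60 log2 units (SE 0.12, adjusted p = 1.06e-05 in limma) in EBF1wt and -1.61 (SE 0.12, adjusted p = 1.15e-05) in EBF1ΔC. The values were far smaller and not called with the authors' values (-0.22 and -0.20) and with normexp and quantile (-0.28 and -0.26), and median scaling gave -0.89 in EBF1wt, also not called. Slc30a7 gave scaled log2 signals of -0.14, 0.22 and 0.15 in Mock, -0.87, -0.97 and -0.95 in EBF1wt and -0.41, -0.37 and -0.35 in EBF1ΔC. It encodes ZnT7 of the Golgi and fell in EBF1wt. Slc30a7 differed from Mock by -1.01 log2 units (SE 0.10, adjusted p = 5.04e-05 in limma) in EBF1wt and -0.46 (SE 0.10, adjusted p = 0.00363) in EBF1ΔC. That call, just past 2-fold, was lost without Mock replicate 2 (-0.94) or 3 (-0.97), or EBF1wt replicate 2 (-0.99) or 3 (-1.0), with the mean of the gene's probes (-0.82), and under 4 other normalizations (-0.97 to -0.31). Slc39a4, the importer ZIP4, fell by 1.51 in EBF1ΔC and differed by -1.15 in EBF1wt with an adjusted p of 0.0632 in limma. Its EBF1ΔC call was lost without Mock replicate 2 (-1.41) or 3 (-1.53) or EBF1ΔC replicate 3 (-0.89), with no filter on dim probes, and under 3 other normalizations (-0.96 to -0.77).

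The iron carriers Slc11a2 and Slc40a1 were not called at this scaling. Slc11a2, the iron importer DMT1, differed from Mock by 0.83 and 0.78, and was called in both with median scaling (1.54 and 1.33). Slc40a1 had a scaled log2 signal of -2.38, -2.17 and -2.34 in the 3 Mock arrays, -2.25, -4.24 and -2.67 in EBF1wt and -1.39, -1.64 and -4.15 in EBF1ΔC. It encodes the iron exporter ferroportin, and its EBF1 arrays were spread widely, from -4.24 to -1.39. Slc40a1 differed from Mock by -0.75 log2 units (SE 0.74, adjusted p = 0.388 in limma) in EBF1wt and -0.10 (SE 0.74, adjusted p = 0.914) in EBF1ΔC. The zinc importers Slc39a6 and Slc39a10 differed by 0.17 and 0.64 in EBF1wt and by 0.16 and 0.16 in EBF1ΔC.

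**Figure D3:**
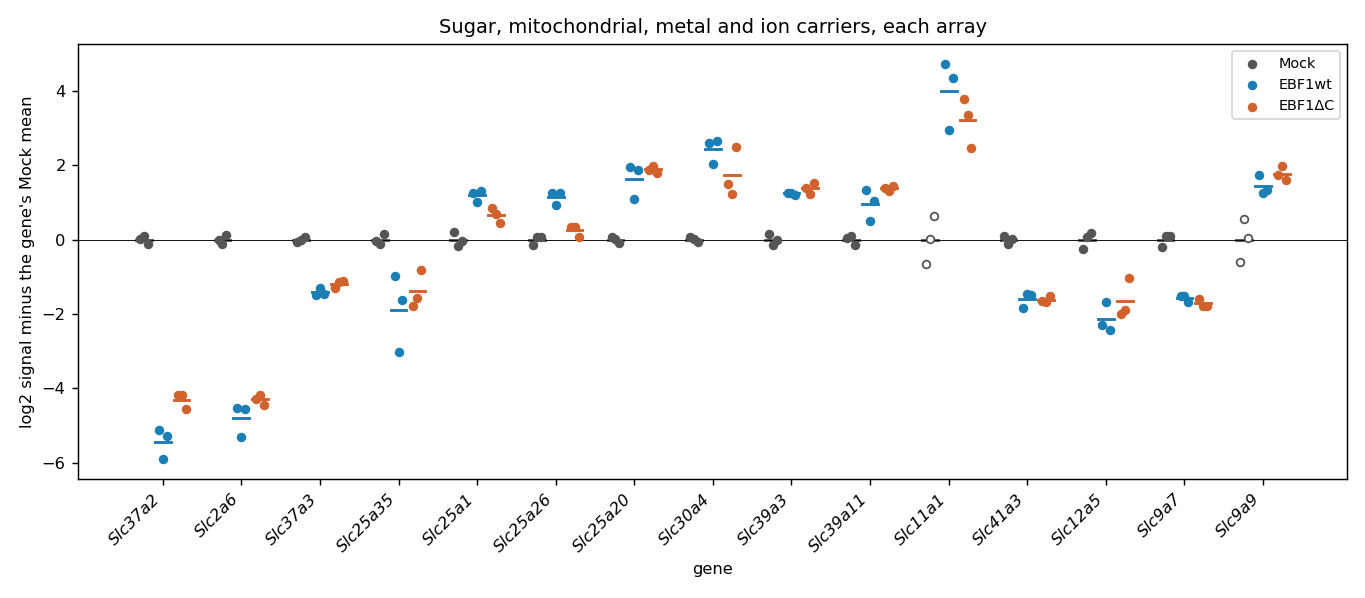
Scaled log2 signal of 15 sugar, mitochondrial, metal and ion carriers minus the mean of Mock for that gene, 1 point an array, with a bar at each group mean. Open points are groups in which not all 3 arrays were above background. Slc37a2 and Slc2a6 lie lowest, with means of -5.43 and -4.80 in EBF1wt.

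Of 26 genes in the families for inorganic ions and pH, 1 rose and 5 fell against Mock in each EBF1 group. In the Mock, EBF1wt and EBF1ΔC arrays, Slc12a5 read 0.04, 0.38 and 0.49, then -2.0, -1.38 and -2.13, then -1.70, -1.60 and -0.72 in scaled log2 signal. It encodes the potassium chloride exporter KCC2, best known from neurons. Slc12a5 differed from Mock by -2.14 log2 units (SE 0.29, adjusted p = 0.000284 in limma) in EBF1wt and -1.64 (SE 0.29, adjusted p = 0.00124) in EBF1ΔC. Slc9a7 had a scaled log2 signal of -0.61, -0.31 and -0.31 in the 3 Mock arrays, -1.94, -1.93 and -2.08 in EBF1wt and -2.0, -2.19 and -2.19 in EBF1ΔC. It encodes NHE7, a sodium proton exchanger of the trans-Golgi network, with groups far apart. Slc9a7 differed from Mock by -1.57 log2 units (SE 0.11, adjusted p = 7.17e-06 in limma) in EBF1wt and -1.72 (SE 0.11, adjusted p = 4.93e-06) in EBF1ΔC. The Slc9a7 calls were lost in the authors' values (-0.82 and -0.87), with normexp and quantile (-0.82 and -0.88) and, in EBF1wt, with median scaling (-0.87). Slc26a11 gave scaled log2 signals of -0.15, -0.33 and -0.06 in Mock, -2.26, -0.81 and -2.37 in EBF1wt and -1.60, -1.68 and -1.83 in EBF1ΔC. It encodes a sulfate carrier, and EBF1wt replicate 2 lay nearer to Mock than the rest. Slc26a11 differed from Mock by -1.63 log2 units (SE 0.36, adjusted p = 0.00379 in limma) in EBF1wt and -1.52 (SE 0.36, adjusted p = 0.00574) in EBF1ΔC. Its calls fell just short with median scaling (-0.92 and -0.97) and the authors' values (-0.99 and -0.98).

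Slc9a4, a sodium proton exchanger detected only in Mock on all arrays, was at least 2.86-fold lower in EBF1wt, where no array was above background (adjusted p = 0.00699 in limma), and read lower by 2.51 in EBF1ΔC, where 1 array was. Neither was called in the authors' values or with normexp and quantile. Slc9a9 had a scaled log2 signal of -6.03, -4.87 and -5.38 in the 3 Mock arrays, -3.69, -4.19 and -4.09 in EBF1wt and -3.69, -3.45 and -3.83 in EBF1ΔC. It encodes NHE9, an exchanger of endosomes, and was not above background on any Mock array. It was at least 2.38-fold higher in EBF1wt and at least 3.0-fold higher in EBF1ΔC, with adjusted p values of 0.00168 and 0.000593 in limma. The same 2 alternatives ended the calls of Slc9a9. Slc8b1, the mitochondrial sodium calcium exchanger named Slc24a6 in the files, fell by 1.06 in EBF1wt and differed by -0.90 in EBF1ΔC. Its EBF1wt call was lost without EBF1wt replicate 2 (-0.99) and under 4 other normalizations (-0.74 to -0.35). Slc12a9 fell by 1.08 in EBF1ΔC and differed by -0.78 in EBF1wt. That call was lost under 4 other normalizations (-0.96 to -0.54).

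Nucleotide sugar carriers bring building blocks of glycans into the endoplasmic reticulum and Golgi. Of 21 members of this class, which was set by family number and not by the cargo of each gene, 1 rose and 2 fell in EBF1wt and 3 fell in EBF1ΔC. The rise was that of Slc35f3, and Slc35f2 was among the falls in EBF1ΔC, both given with the direct comparison below. Slc35d1 gave scaled log2 signals of -0.99, -0.70 and -0.64 in Mock, -2.03, -1.86 and -2.08 in EBF1wt and -2.05, -2.27 and -2.13 in EBF1ΔC. Slc35d1 differed from Mock by -1.21 log2 units (SE 0.11, adjusted p = 4.24e-05 in limma) in EBF1wt and -1.37 (SE 0.11, adjusted p = 2.38e-05) in EBF1ΔC. It carries UDP-glucuronic acid and UDP-N-acetylgalactosamine. Slc35d2 had a scaled log2 signal of -1.99, -2.02 and -2.06 in the 3 Mock arrays, -3.19, -3.08 and -3.36 in EBF1wt and -3.35, -3.14 and -3.51 in EBF1ΔC. Slc35d2 differed from Mock by -1.19 log2 units (SE 0.11, adjusted p = 3.81e-05 in limma) in EBF1wt and -1.31 (SE 0.11, adjusted p = 2.41e-05) in EBF1ΔC. It carries UDP-N-acetylglucosamine among others. Both fell in both EBF1 groups with narrow groups at this scaling. Under 3 other normalizations the calls of Slc35d1 were lost (-0.67 to -0.50 in EBF1wt and -0.82 to -0.79 in EBF1ΔC), as were those of Slc35d2 (-0.48 to -0.40 and -0.76 to -0.50), and in EBF1wt the latter also with quantile alone (-0.79). In EBF1wt, the uncalled members of the class lay between -0.60 and 0.70.

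Of 17 carriers of organic acids and organic ions, 1 rose and 4 fell in each EBF1 group. In the Mock, EBF1wt and EBF1ΔC arrays, Slc22a6 read -2.51, -2.15 and -1.85, then -5.14, -4.94 and -5.18, then -4.63, -4.39 and -4.69 in scaled log2 signal. It encodes the organic anion carrier OAT1, best known from kidney, and 1 of 3 EBF1wt arrays was above background. Slc22a6 differed from Mock by -2.92 log2 units (SE 0.17, adjusted p = 2.83e-06 in limma) in EBF1wt and -2.40 (SE 0.17, adjusted p = 9.26e-06) in EBF1ΔC. Its calls were lost in the authors' values (-0.74 and -0.60) and with normexp and quantile (-0.85 and -0.68). Slc16a11, of the monocarboxylate family, was above background on Mock arrays only and was at least 1.58-fold lower in EBF1wt and at least 1.68-fold lower in EBF1ΔC. Neither of its calls held under any of the 4 other normalizations. Slc16a8, of the same family, fell by 1.73 and 1.20, with 1 and 2 EBF1 arrays above background. In the authors' values Slc16a8 differed by only -0.19 and -0.13 and was not called, with -0.23 and -0.14 with normexp and quantile. Its EBF1ΔC call was also lost with quantile (-0.69) and median scaling (-0.65). Slc16a13 fell by 1.11 in EBF1ΔC and differed by -0.59 in EBF1wt. This call was lost without EBF1ΔC replicate 3 (-0.87) and under 4 other normalizations (-0.92 to -0.40). Slc10a7 rose by 1.02 in EBF1ΔC, with 0.78 in EBF1wt. The mean of the Slc10a7 probes gave 0.45 without a call, and quantile (0.96) and normexp and quantile (0.99) fell just short. Slc22a15 fell by 1.08 in EBF1wt, which was lost without EBF1wt replicate 2 (-0.93) and under 4 other normalizations (-0.97 to -0.38), and differed by -0.52 in EBF1ΔC.

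Phosphate and vesicular carriers numbered 6, of which 1 rose and 1 fell in EBF1wt. In EBF1ΔC all were within 2-fold of Mock. Slc17a9 had a scaled log2 signal of 2.56, 2.17 and 2.61 in the 3 Mock arrays, 3.45, 4.08 and 3.58 in EBF1wt and 2.92, 3.22 and 3.11 in EBF1ΔC. It encodes the vesicular carrier of ATP. Slc17a9 differed from Mock by 1.26 log2 units (SE 0.18, adjusted p = 0.000448 in limma) in EBF1wt and 0.63 (SE 0.18, adjusted p = 0.0154) in EBF1ΔC. Slc17a8, a vesicular glutamate carrier, was at least 1.55-fold lower in EBF1wt, where no array was above background. The call was lost under 4 other normalizations, where the measured difference all but vanished in the authors' values (-0.01) and with normexp and quantile (-0.03) and was -0.28 with quantile and -0.31 with median scaling. Leaving out Mock replicate 2 (-0.90), EBF1wt replicate 2 (-0.86) or EBF1wt replicate 3 (-1.0) also ended it. These are measured differences from a group below background. Slc20a1, a phosphate importer, differed by 0.22 and 0.18.

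Of 18 genes in the families for vitamins, nucleosides, choline and lipids, 1 rose and 2 fell in EBF1wt and 2 fell in EBF1ΔC. The 2 falls in EBF1ΔC were Slc27a3 and the urea carrier Slc14a1, whose family was placed in this class. Slc19a1 gave scaled log2 signals of 3.88, 3.55 and 3.57 in Mock, 4.32, 4.93 and 4.57 in EBF1wt and 3.98, 3.83 and 3.60 in EBF1ΔC. It encodes the folate importer, and EBF1ΔC lay near Mock. Slc19a1 differed from Mock by 0.95 log2 units (SE 0.17, adjusted p = 0.00142 in limma) in EBF1wt and 0.14 (SE 0.17, adjusted p = 0.51) in EBF1ΔC. It passed 2-fold in EBF1wt without Mock replicate 1 (1.05) or EBF1wt replicate 1 (1.09). It was also called there with the mean of its probes and with median scaling (1.65). Slc27a3 had a scaled log2 signal of -1.04, -0.86 and -0.66 in the 3 Mock arrays, -1.87, -1.92 and -1.87 in EBF1wt and -2.43, -2.29 and -1.65 in EBF1ΔC. It belongs to the fatty acid transport proteins, and its EBF1wt call was lost without Mock replicate 3 (-0.94). Slc27a3 differed from Mock by -1.03 log2 units (SE 0.19, adjusted p = 0.00157 in limma) in EBF1wt and -1.27 (SE 0.19, adjusted p = 0.000558) in EBF1ΔC. The Slc27a3 calls were lost under other normalizations, 4 in EBF1wt (-0.86 to -0.33) and 3 in EBF1ΔC (-0.82 to -0.72). Slc27a1, of the same family, rose by 1.12 in EBF1wt. That call was lost without EBF1wt replicate 2 (0.97) or 3 (0.96), in the authors' values (0.92) and with normexp and quantile (0.97). It differed by 0.96 in EBF1ΔC, called without Mock replicate 1 (1.03) or EBF1ΔC replicate 3 (1.11), and with quantile or median scaling.

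Slc46a3, a lysosomal carrier, fell by 1.05 in EBF1wt, which was lost without EBF1wt replicate 2 (-0.95) and under 3 other normalizations (-0.81 to -0.35), and differed by -0.52 in EBF1ΔC. Slc14a1 gave scaled log2 signals of 3.69, 3.55 and 3.50 in Mock, 3.03, 2.95 and 3.09 in EBF1wt and 2.58, 2.82 and 2.20 in EBF1ΔC. It encodes a urea carrier of red cells and kidney, and the erythroid marker list was also lower in the EBF1 groups. Slc14a1 differed from Mock by -0.55 log2 units (SE 0.15, adjusted p = 0.00923 in limma) in EBF1wt and -1.04 (SE 0.15, adjusted p = 0.000357) in EBF1ΔC. The EBF1ΔC call was lost without Mock replicate 1 (-0.99) or EBF1ΔC replicate 3 (-0.88) and with median scaling (-0.50). Slc44a2, a choline carrier family member, differed by -0.92 and -0.78. In EBF1wt it was called without Mock replicate 2 (-1.01), with quantile, with normexp and quantile and with the authors' values (down to -1.21). In EBF1ΔC it was called with the last 2 of these (down to -1.08). Slc29a1, the nucleoside carrier ENT1, differed by 0.83 and 0.51.

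The direct comparison sets cells with EBF1 lacking its C-terminal domain against cells with full-length EBF1. These groups also differed in other respects. The brighter Ebf1 probe read 3.06 in EBF1wt and 3.80 in EBF1ΔC. The summed myeloid signal was -0.37 to 1.57 in EBF1wt and 3.04 to 3.98 in EBF1ΔC. The part of these differences in the calls below was not tested. Slc9a2 had a scaled log2 signal of 2.14, 2.21 and 2.0 in the 3 Mock arrays, 2.88, 3.07 and 2.84 in EBF1wt and 1.82, 1.80 and 1.42 in EBF1ΔC. It encodes NHE2, a sodium proton exchanger of the plasma membrane. The groups did not overlap, and Mock lay between the EBF1 forms. Slc9a2 in EBF1ΔC differed from EBF1wt by -1.25 log2 units (SE 0.12, adjusted p = 0.000966 in limma). On the 2 slides that held both forms the difference was -1.65 and -1.02, and the second probe gave -1.01. The call held whichever array was left out and was lost with slide as a fixed block (-1.33, adjusted p = 0.0574 in limma). In the Mock, EBF1wt and EBF1ΔC arrays, Slc47a1 read -7.60, -7.29 and -7.06, then -3.90, -2.55 and -4.04, then -7.20, -7.28 and -7.22 in scaled log2 signal. It encodes MATE1, an exporter of organic cations, and was above background in EBF1wt only. It was at least 3.73-fold lower in EBF1ΔC than in EBF1wt and at least 3.81-fold higher in EBF1wt than in Mock, with adjusted p values of 0.000707 and 3.57e-05 in limma. Both calls held whichever array was left out. They were lost in the authors' values, where EBF1ΔC differed from EBF1wt by a measured -0.58 and EBF1wt from Mock by 0.60, and with normexp and quantile (-0.72 and 0.75).

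The other 4 calls depended on single arrays. Slc37a2, whose values are above, was higher in EBF1ΔC by 1.12 (SE 0.20, adjusted p = 0.0124 in limma), and 1.33 and 1.09 within the slides. That call needed EBF1wt replicate 2 (0.89 without it) and EBF1ΔC replicate 2 (1.06), and was lost under 3 other normalizations (0.64 to 0.96) and with 2 groups only in the fit. Slc6a13 had a scaled log2 signal of -2.20, -2.37 and -2.48 in the 3 Mock arrays, -2.51, -4.13 and -2.95 in EBF1wt and -5.23, -4.72 and -6.14 in EBF1ΔC. It encodes a carrier of GABA, above background on 2 of 3 EBF1ΔC arrays. Slc6a13 in EBF1ΔC differed from EBF1wt by -2.17 log2 units (SE 0.45, adjusted p = 0.0215 in limma). The call was lost without EBF1wt replicate 1 (-1.82) or 3 (-2.05), or EBF1ΔC replicate 1 (-2.23), with no filter on dim probes or 2 groups only, in the authors' values (-0.54) and with normexp and quantile (-0.66). Against Mock it fell by 3.01 in EBF1ΔC, not called under the last 2 alternatives (-0.80 and -0.92), and differed by -0.84 in EBF1wt.

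Slc35f2 gave scaled log2 signals of -1.89, -1.91 and -1.76 in Mock, -2.35, -0.76 and -1.98 in EBF1wt and -3.23, -2.77 and -4.0 in EBF1ΔC. Slc35f2 in EBF1ΔC differed from EBF1wt by -1.64 log2 units (SE 0.42, adjusted p = 0.0449 in limma). EBF1wt replicate 2 was the high array. The call was lost without any 1 array other than EBF1wt replicate 1, with values from -1.92 to -1.17. Without a Mock array the difference stayed at -1.64, and the adjusted p in limma was 0.0721 to 0.075. Slc35f3 had a scaled log2 signal of -2.53, -2.44 and -2.30 in the 3 Mock arrays, -0.94, 0.20 and -0.83 in EBF1wt and -1.75, -1.69 and -1.56 in EBF1ΔC. Slc35f3 in EBF1ΔC differed from EBF1wt by -1.14 log2 units (SE 0.26, adjusted p = 0.0315 in limma). EBF1wt replicate 2 was again the high array. That call was lost without any 1 of the Mock or EBF1ΔC arrays (-1.19 to -1.1) or EBF1wt replicate 2 (-0.78). For the Mock arrays the difference stayed at -1.14, and the adjusted p in limma was 0.0516 to 0.056. With slide as a fixed block neither was called (-2.25 and -1.34), nor with 2 groups only, with no filter on dim probes, in the authors' values (-0.81 and -0.79) or with normexp and quantile (-0.86 and -0.79). Slc35f2 was also lost with quantile alone and with every probe tested on its own, and Slc35f3 with replicate number as a block. Within the slides Slc6a13 differed by -2.02 and -2.28, Slc35f2 by -3.24 and -1.25 and Slc35f3 by -1.76 and -0.92. Against Mock, Slc35f3 rose by 1.90 in EBF1wt and differed by 0.76 in EBF1ΔC, while Slc35f2 differed by 0.15 and fell by 1.49, the latter not called under 3 other normalizations (-0.94 to -0.59). In the authors' normalized values 1 carrier was called between the forms, lower in EBF1ΔC, and with median scaling 6 were, each lower in EBF1ΔC. Of all genes, 64 were higher and 61 lower in EBF1ΔC with the authors' values, and 141 and 225 with median scaling.

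**Figure D4:**
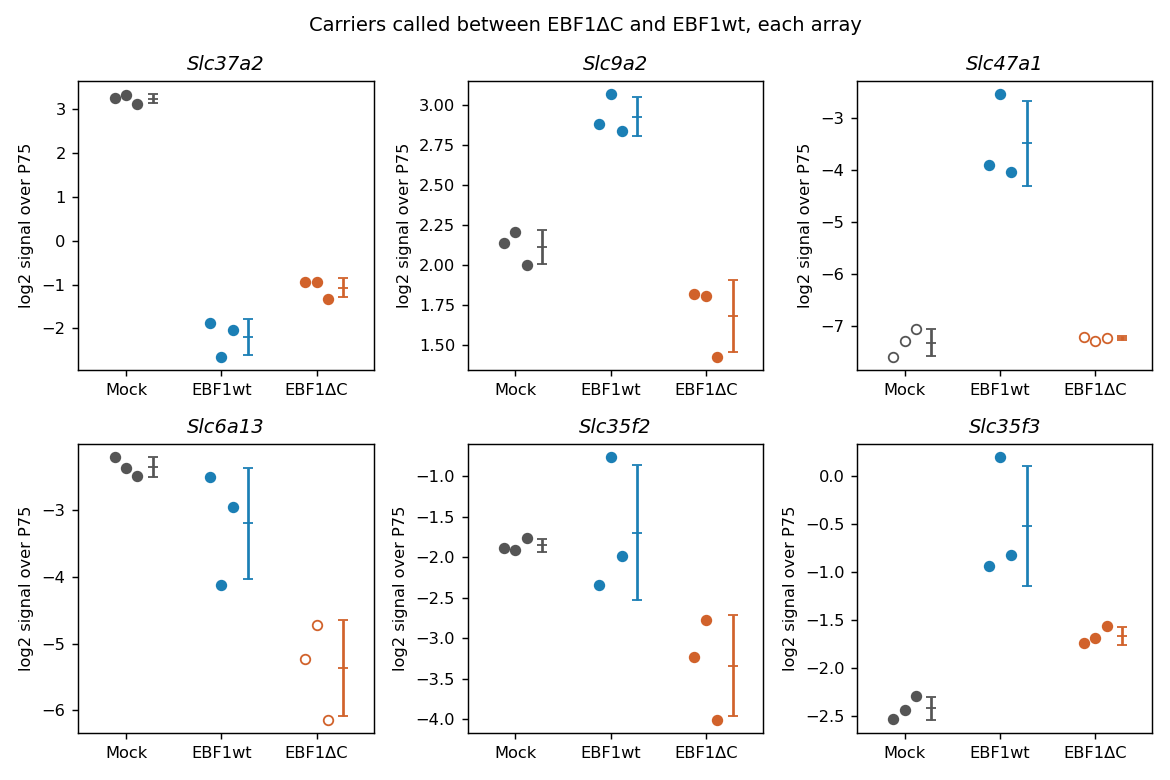
Scaled log2 signal of the 6 carriers called between EBF1ΔC and EBF1wt, 1 point an array with mean and SD (n = 3) beside it; each panel has its own axis. Open points are groups in which not all 3 arrays were above background. Slc9a2 separates all groups, with EBF1wt at 2.84 to 3.07 and EBF1ΔC at 1.42 to 1.82.

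Detection alone set 17 carriers apart. Among them, Slc16a8, Slc16a11, Slc17a8, Slc22a8, Slc26a3, Slc39a2, Slc6a17 and Slc9a4 were above background on all arrays of Mock alone, Slc47a1 of EBF1wt alone, and Slc46a2 of EBF1ΔC alone. Slc11a1 and Slc9a9 passed in both EBF1 groups, Slc22a17 and Slc22a6 in Mock and EBF1ΔC, and Slc37a1 and Slc6a13 in Mock and EBF1wt. The dimmest member probe by its highest group mean was that of Slc46a2, at -5.10 in EBF1ΔC. The brightest carrier probe outside the rule was a second probe of Slc35f3, at -4.43 in EBF1wt, where 1 of 3 arrays was above background. Several member probes were present for 79 genes, and in no comparison were probes of a gene called in opposite directions.

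Other genes of transport were followed through lists chosen by name. Over all genes tested, 6.65% rose and 12.4% fell in EBF1wt, and 6.3% rose and 11.4% fell in EBF1ΔC. The alternatives were not examined for the genes of these lists, so how far their calls depend on the processing is not known. Of 19 ABC transporters, 6 fell in EBF1wt, and 3 fell in EBF1ΔC. Abcg1, a cholesterol exporter, differed from Mock by -2.47 and -3.63, and Abcb9, a lysosomal peptide carrier, by -3.21 and -2.29. Of 39 ATP-driven ion pumps, 1 rose and 5 fell in EBF1wt and 2 rose and 4 fell in EBF1ΔC. Atp6v0a1, a subunit of the lysosomal proton pump, differed by -1.79 and -1.80. Atp13a2, a lysosomal pump of polyamines, was the only one called between the forms, at 1.07 higher in EBF1ΔC.

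Of 24 genes for amino acid sensing at the lysosome, 3 rose and 1 fell in EBF1wt and 2 rose in EBF1ΔC. Rragd, a GTPase that recruits mTORC1, rose by 2.28 and 2.07, Mtor by 1.25 and 1.27, and Rptor, the mTORC1 scaffold, by 1.07 in EBF1wt with 0.74 in EBF1ΔC. Castor2, of the family of arginine sensors, fell by 1.18 in EBF1wt. Of 14 genes for iron and zinc handling, 3 rose and 1 fell in EBF1wt and 2 rose in EBF1ΔC. The zinc-binding metallothioneins Mt1 and Mt2 rose by 1.31 and 1.65 in EBF1wt and by 1.36 and 2.22 in EBF1ΔC. Of 3 carriers of the SLCO family, Slco1b2 rose by 1.52 in EBF1ΔC. Of 6 transporter chaperones, Bsg, the partner of monocarboxylate carriers, differed from Mock by -0.41 and -0.42, short of 2-fold.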

How the data were processed

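RNA of 9 samples was labelled with Cy3 and hybridised to 1-colour Agilent arrays, each with 41174 probes. Per the file headers the authors deposited scanner output made with Feature Extraction 10.5.1.1, while the submitters' processing notes name version 9.1. The deposited gProcessedSignal is an intensity, background-corrected by that software, and 50.8% to 56.9% of probes were well above background per array, with 0 saturated spots. The authors' deposited value table was taken to be on a log2 scale. It correlated at r = 0.996 to 0.997 with the log2 of the quantile-normalized scanner signal plus a constant. The centring and scaling of that table are not given in the sources used here. Its column medians are 6.74 on each array, and it served as an alternative.

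Control spots and outlier flags were left out, spots of a probe were averaged, and log2 of the intensity was taken minus the array's 75th percentile. Of the probes 22357 passed the detection rule in at least 1 group. Genes were named by accession through RefSeq (27471 probes), by symbol (5484), by synonym (679) or by the file's name (793), and 6747 probes had no name. The probe with the highest mean stood for a gene, for a carrier among its member probes. One model over the 9 arrays (limma 3.58.1, R 4.3.3, a mean per group, 6 residual degrees of freedom) gave differences for 11905 genes, adjusted by Benjamini-Hochberg over all of them. The step was tested on simulated data. Genes not above background on any array of a group were given bounds. The number of arrays limits the precision.

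The members, transport classes, gene lists and tests were chosen with earlier results of these data known. Carriers named are, per comparison, the 8 highest and 8 lowest called with all 6 arrays detected and no overlap, the 4 largest bounds each way, up to 3 called per class with the smallest adjusted p (or the largest difference where none was called), and 30 listed genes, of which 28 were members. Slc6a17, Slc16a8, Slc16a13, Slc37a1 and Slc39a4 were added after their values were seen. Slc7a8 and Slc7a11 did not pass the filter. A few named genes are not reported here. The alternatives were other background correction, scaling, filters, probe rules, fits, thresholds, blocks and arrays left out. Same-numbered samples of different groups had deviation correlations from -0.18 to 0.11, so the numbers were not taken as pairs.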

Additional observations from a re-analysis of the deposited data

How the results depend on the processing

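Counts of carriers called are given as higher and lower. Between EBF1ΔC and EBF1wt (1 and 5 as reported) they were 0 and 1 with normexp and quantile normalization or with the authors' values, 0 and 6 with median scaling, 1 and 3 with probes above background on all 9 arrays, 1 and 2 with no filter or with slide as a fixed block (2 residual degrees of freedom), 2 and 5 with the mean of a gene's probes, and 0 and 2 with 2 groups only or at an adjusted p under 0.01. At an adjusted p under 0.05 without the fold they were 7 and 16. With slide as a random block, chosen after seeing the data, they stayed at 1 and 5. Of all genes, 1.09% were called between the forms with normexp and quantile, 1.05% with the authors' values and 3.07% with median scaling. The share was 2.03% with probes above background on all 9 arrays, 1.15% with no filter and 1.27% with slide as a fixed block. It was 2.73% with the mean of a gene's probes and 1.74% with 2 groups only. All genes were not counted at the other p and fold thresholds. For EBF1wt against Mock (16 and 25) the counts were 7 and 9 with normexp and quantile or the authors' values, 64 and 10 with median scaling, and 67 and 58 without the fold. For EBF1ΔC against Mock (12 and 25) they were 7 and 10, 6 and 8, 41 and 11, and 59 and 57 in the same order. Of all genes in EBF1wt, 8.58% were called with normexp and quantile, 8.43% with the authors' values and 44.8% with median scaling. In EBF1ΔC these shares were 8.66%, 8.47% and 32.5%. Leaving out each array in turn gave 0 to 1 and 2 to 4 between the forms, 15 to 18 and 21 to 27 for EBF1wt, and 12 to 15 and 23 to 26 for EBF1ΔC. The share of all genes called was then 2.06% to 3.06%, 17.7% to 19.3% and 16.5% to 18.2%. With replicate number as a block the counts were 1 and 4, 16 and 25, and 12 and 25, a number that the samples share without a known pairing. Why the counts moved with the normalization was not tested. No carrier changed direction in a comparison where it was called under these alternatives. Of the calls, 12 of 41 in EBF1wt and 11 of 37 in EBF1ΔC held under each alternative fit, and each of the 6 between the forms was lost under 1 or more. The calls that held against Mock in both include the falls of Slc37a2, Slc2a6, Slc7a7, Slc15a3 and Slc12a5 and the rises of Slc7a5, Slc6a9 and Slc25a20. Signal over background limits the 17 carriers not detected on all 9 arrays.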

Other observations

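RefSeq now gives carrier names to 9 measured genes that the array files list under other names, so they stood outside the rule. Slc49a4, named Dirc2 in the files and known as a lysosomal carrier, had scaled log2 signals of 0.48, 0.72 and 0.68 in Mock, -1.26, -1.17 and -1.06 in EBF1wt and -1.12, -1.10 and -0.88 in EBF1ΔC. It fell by 1.79 in EBF1wt and by 1.66 in EBF1ΔC in limma. Slc52a3, a riboflavin importer listed as 2310046K01Rik, read 0.63, 0.65 and 0.56 in Mock, 2.17, 1.73 and 2.09 in EBF1wt and 1.04, 1.22 and 0.00 in EBF1ΔC. It rose by 1.39 in EBF1wt, differed from Mock by 0.14 in EBF1ΔC, and was lower in EBF1ΔC than in EBF1wt by a called difference of -1.24. Slc25a51, the mitochondrial carrier of NAD listed as Mcart1, differed from Mock by 0.72 in both EBF1 groups, short of 2-fold. These genes were singled out after their values were seen, and the alternatives were not examined for them.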
